A study of Mus musculus with 93 samples.

Results

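Oocytes of Esr2 knockout mice were compared between 6 months and 7 weeks of age, in 4 libraries at 6 months and 12 at 7 weeks, which together are 16 of the 93 libraries of the series. The libraries were chosen by their labels alone: all 4 knockout columns of the 6 month oocyte table and all 12 knockout columns of the 7 week oocyte table, joined by gene symbol. The mice of both ages lacked Esr2, the gene of estrogen receptor beta, and were neither treated nor grouped in any other way that the labels give. RNA had been made into cDNA libraries by the Smart-seq2 method, which copies polyadenylated transcripts at full length. Wild type oocytes of the same ages (11 libraries at 6 months and 5 at 7 weeks) served to set the age change of the knockout beside that of the wild type, and knockout oocytes of 4 weeks (7 libraries) gave a further age. The labels name neither the strain, the allele, the animals nor the number of oocytes behind a library, so p-values measure only the spread between these libraries, which may in part be technical. The libraries of 6 months and of 7 weeks came in separate deposited tables, and age and any other difference between the tables cannot be told apart. One 7 week column had a name that joins 2 sample numbers and was used as an unnumbered library of its group.

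The mouse oocyte grows inside the follicle while arrested in meiosis, and it builds up messenger RNAs that are stored and used after transcription has stopped, during maturation and the first cell cycles of the embryo. Around it lies the zona pellucida, whose glycoproteins the oocyte makes itself, and it steers the granulosa cells through secreted factors such as GDF9 and BMP15. With maternal age, fertility falls and errors of chromosome segregation become more frequent. Estrogen receptor beta is a nuclear receptor that is best known in the ovary from granulosa cells.

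Esr2 itself, on chromosome 12 (76120419 to 76177259, GENCODE vM21 on mm10), had 0 counts in all 4 knockout libraries of 6 months. At 7 weeks, 4 counts were found in 2 of the 12 knockout libraries. Wild type oocytes averaged 73.2 ± 19.9 CPM, here each library's counts relative to its own total, at 6 months and 69.8 ± 11.9 CPM at 7 weeks (SD, n = 11 and n = 5). The knockout thus had no Esr2 reads at 6 months and almost none at 7 weeks, and no fold between the knockout ages is given. Esr1, the gene of estrogen receptor alpha, had 47.9, 40.4, 31.7 and 43.4 CPM in the 6 month knockout libraries, against 19.3, 38.4 and 61.9 CPM as the lowest, the median and the highest of the 7 week knockout libraries. The 6 month values lay inside the 7 week range, and the change of 0.04 ± 0.25 (log2 ± SE) did not pass the test (adjusted p = 0.944, edgeR). These and all gene levels given from here on are CPM after TMM scaling, a factor per library that levels its overall composition.

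Of 13471 genes tested, 782 (5.81%) differed between 6 months and 7 weeks in knockout oocytes with an adjusted p under 0.05, by the edgeR quasi-likelihood test with Benjamini-Hochberg adjustment. At 6 months 449 genes (3.33%) were higher and 333 (2.47%) lower, and 402 of the 782 changed by 2-fold or more. In 398 of the 782 the values of the 2 ages did not overlap. These genes had been picked by their p-values, and the share over all genes tested was not computed. The count is thus a description and no further evidence of change. The count leaned on single 6 month libraries. It was 407 without library 1, 257 (1.87%) without library 2, 231 (1.68%) without library 3 and 695 without library 4. Without library 2, 1.53% of the genes tested were higher and 0.334% lower at 6 months, and without library 3 these shares were 1.33% and 0.349%. Counts of list members in the fits without 1 library, given below, are to be read beside this general loss. Genes with a role in protein turnover and in energy metabolism stood among those that were higher at 6 months, as did the egg coat gene Zp3. Large chromatin regulators stood among those that were lower.

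The gene with the smallest p was Gstm5, a glutathione S-transferase of the mu class, enzymes that couple glutathione to reactive compounds. It had 500.0, 328.6, 330.5 and 243.6 CPM in the 6 month knockout libraries, against a lowest value of 43.7, a median of 70.9 and a highest of 126.1 CPM at 7 weeks. Every 6 month value lay above every 7 week value, and the log2 change was 2.21 ± 0.25 (SE; adjusted p = 7.6e-08, edgeR). Psmb2, a beta subunit of the proteasome core, had 280.4, 188.4, 257.7 and 139.5 CPM at 6 months, against 29.8, 52.5 and 87.4 CPM at 7 weeks as lowest, median and highest. The ages did not overlap, with a log2 change of 1.88 ± 0.24 (adjusted p = 1.0e-06, edgeR). H3f3a, which codes for the replication-independent histone H3.3, had 534.3, 406.4, 396.8 and 325.0 CPM at 6 months, against 77.6, 110.2 and 186.2 CPM at 7 weeks. Ldhb, the B subunit of lactate dehydrogenase, had 5803, 4200, 2912 and 2947 CPM at 6 months, against 527, 1273 and 1678 CPM at 7 weeks. Both genes were higher in every 6 month library than in any 7 week library, by 1.82 ± 0.24 and 1.66 ± 0.25 on the log2 scale. Both also have processed pseudogenes among the counted genes, and Ldhb-ps had the same log2 change of 1.66 as Ldhb, so how their reads were split between the copies is uncertain.

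The other genes among the 12 higher ones with the smallest p were of several kinds. Miox, the enzyme that opens the ring of myo-inositol, had 512.5, 214.2, 331.1 and 217.2 CPM at 6 months, against 20.8, 82.1 and 132.0 CPM at 7 weeks, without overlap. Psma2, an alpha subunit of the proteasome core, had 1384, 1088, 1191 and 895 CPM at 6 months, against 320, 481 and 629 CPM at 7 weeks, also without overlap. The E2 ubiquitin-conjugating enzyme Ube2c, a partner of the anaphase-promoting complex, had 268.5, 218.4, 206.4 and 181.1 CPM at 6 months, against 32.1, 80.1 and 140.8 CPM at 7 weeks. A second E2 enzyme, Ube2t, which acts in DNA crosslink repair, averaged 784 ± 222 CPM at 6 months and 254 ± 106 CPM at 7 weeks (SD, n = 4 and n = 12). Nrn1l averaged 186.7 ± 34.8 CPM at 6 months and 72.1 ± 16.1 CPM at 7 weeks. Tm2d1 averaged 122.5 ± 55.5 CPM at 6 months and 23.7 ± 19.2 CPM at 7 weeks, and its groups overlapped. Pebp1, a phosphatidylethanolamine-binding protein that can restrain Raf kinase, and Mis18a, a factor that helps load the centromere histone, each had 1 high library at 6 months. Library 1 held 161 CPM of Pebp1 and the others 63.1 to 67.9 CPM, against 25.3 to 51.8 CPM at 7 weeks. For Mis18a, library 1 held 248.6 CPM and the others 63.6 to 72.1 CPM, against 9.45 to 85.5 CPM at 7 weeks. All 12 genes passed the test in each fit that left out 1 knockout library.

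**Figure D1:**
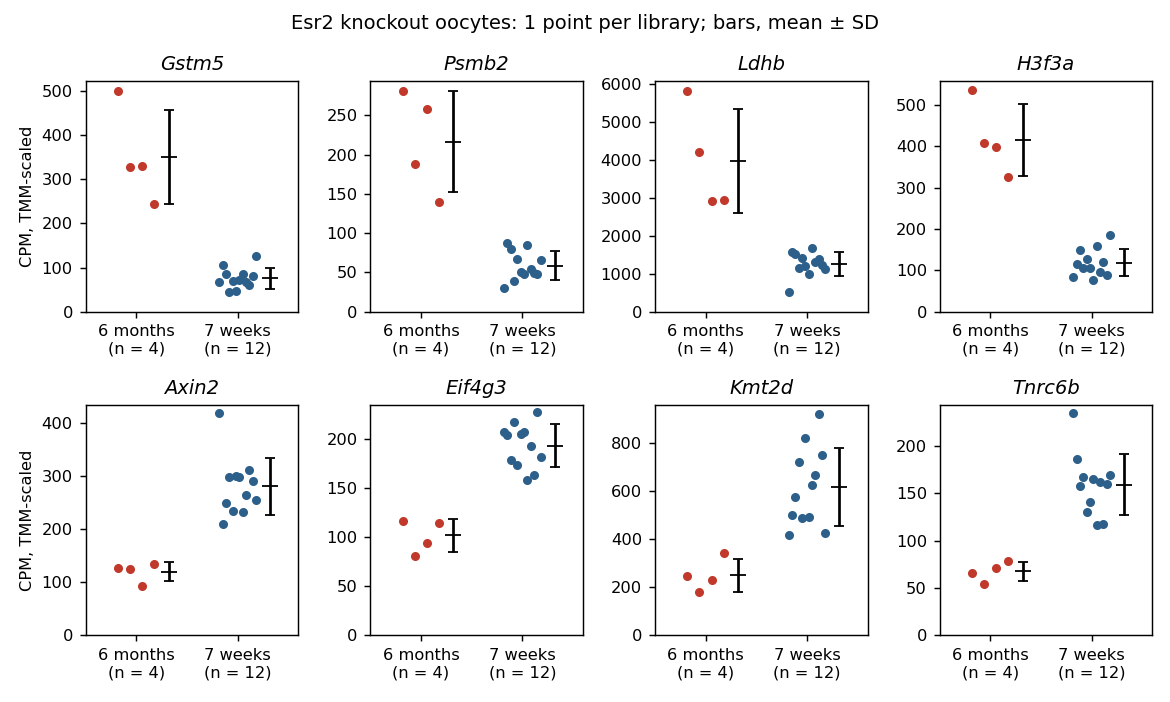
CPM after TMM scaling (vertical axes, from 0) of 8 genes in each Esr2 knockout oocyte library, with 6 months (n = 4) left of 7 weeks (n = 12) and the mean ± SD beside the points. Gstm5, Psmb2, Ldhb and H3f3a were higher and Axin2, Eif4g3, Kmt2d and Tnrc6b lower in all 4 libraries of 6 months than in any of the 12 of 7 weeks.

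The sequence before the start was read for those leading genes that had one, because genes of glutathione use and of the proteasome stood together at the top. The letters searched were TGACNNNGC, on both strands, the core of the antioxidant response element, to which the factor NRF2 is known to bind. Stretches are from RefSeq (GRCm38.p6), 5′ to 3′ on the gene's strand, and end before the first transcribed base of the GENCODE vM21 gene. Capitals mark the match. Gstm5 and Miox are shown as the 2 of 9 higher genes with a match, and Psma2 as a proteasome gene without one.
Gstm5, chr3:107895604-107895820, plus strand: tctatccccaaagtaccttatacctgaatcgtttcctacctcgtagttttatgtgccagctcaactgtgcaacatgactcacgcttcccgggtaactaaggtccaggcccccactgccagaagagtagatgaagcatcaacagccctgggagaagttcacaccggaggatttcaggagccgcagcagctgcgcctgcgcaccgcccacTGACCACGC
Miox, chr15:89334223-89334397, plus strand: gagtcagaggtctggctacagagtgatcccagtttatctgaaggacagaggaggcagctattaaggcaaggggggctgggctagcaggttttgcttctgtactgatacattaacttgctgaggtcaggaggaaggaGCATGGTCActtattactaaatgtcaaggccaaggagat
Psma2, chr13:14612992-14613239, plus strand: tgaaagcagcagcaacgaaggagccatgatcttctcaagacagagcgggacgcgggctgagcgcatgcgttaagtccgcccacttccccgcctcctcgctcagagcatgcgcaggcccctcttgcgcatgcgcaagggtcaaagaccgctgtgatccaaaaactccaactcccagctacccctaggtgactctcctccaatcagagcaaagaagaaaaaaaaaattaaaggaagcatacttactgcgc
Of the 6 lower genes with such a stretch, 1 (Gpd1l) held a match. Among all 9604 tested genes with a promoter in that table, 13.9% had a match in the 250 bases before the start, and of 32 proteasome genes 6 did. Those 250 bases were not cut at the GENCODE vM21 gene, unlike the stretches of the leading genes. The shares were thus not counted in equal windows. A match of letters is a description and not a binding site.

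Among the genes that were lower at 6 months, Eif4g3 had the smallest p. It codes for a scaffold of the translation initiation complex and had 116.5, 81.3, 94.5 and 114.9 CPM at 6 months, against 158.6, 198.5 and 227.6 CPM at 7 weeks as lowest, median and highest. No value of 6 months reached the lowest of 7 weeks, and the log2 change was -0.92 ± 0.17 (SE; adjusted p = 5.8e-04, edgeR). Axin2, a scaffold that promotes breakdown of beta-catenin and is itself a target of Wnt signalling, had 126.4, 125.6, 93.0 and 134.8 CPM at 6 months, against 209.4, 277.4 and 417.4 CPM at 7 weeks. Its log2 change was -1.22 ± 0.23, again without overlap. Kmt2d, a histone H3 lysine 4 methyltransferase, had 245.8, 182.3, 229.8 and 342.6 CPM at 6 months, against 420.3, 601.5 and 924.1 CPM at 7 weeks. Tnrc6b, a partner of Argonaute in microRNA silencing, had 66.1, 54.6, 71.5 and 78.8 CPM at 6 months, against 117.0, 160.8 and 234.5 CPM at 7 weeks. Both were lower in all 4 libraries than in any of 7 weeks, with log2 changes of -1.31 ± 0.27 and -1.23 ± 0.27.

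The other genes of this set of 12 were lower too, with log2 changes of -0.92 to -1.72. Cntnap1, known from the junctions between axon and glia, had the largest fold among them and was low at both ages, with 7.77, 5.00, 5.69 and 6.28 CPM at 6 months against 11.8, 17.3 and 33.9 CPM at 7 weeks. Cntrob, a protein of the daughter centriole, averaged 20.7 ± 5.4 CPM at 6 months and 48.8 ± 12.2 CPM at 7 weeks. Gpd1l, related to glycerol-3-phosphate dehydrogenase, averaged 101.5 ± 23.9 CPM at 6 months and 192.5 ± 31.1 CPM at 7 weeks. Mark2, a kinase of cell polarity and microtubules, averaged 348.1 ± 95.5 CPM at 6 months and 722.8 ± 139.6 CPM at 7 weeks. Atxn2l, a relative of ataxin 2 found in RNA granules, Ammecr1l and Zmiz2 were lower too, with overlap between the ages. Ikzf4, a zinc finger factor of the Ikaros family, averaged 95.0 ± 27.6 CPM at 6 months and 202.3 ± 33.7 CPM at 7 weeks, and its call was lost without 6 month library 3 (adjusted p = 0.054, edgeR). At 4 weeks, the mean of 21 of the 24 leading genes lay inside the gene's 7 week range, as for Gstm5 at 101.3 CPM and Kmt2d at 548.7 CPM. Ldhb, at 2166 CPM, and Miox, at 131.97 CPM, lay above the highest 7 week values of 1678 and 131.96 CPM, and Ikzf4, at 125.2 CPM, lay below its lowest of 125.8 CPM. Here a mean of 7 libraries was set against the range of 12 single libraries, and the share over all genes was not computed. A mean inside that range does not show that 4 weeks and 7 weeks were alike.

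A property of the transcripts went along with these changes and touches every gene group described next. Genes with short transcripts were on the whole higher and genes with long transcripts lower at 6 months. Genes were put into 5 classes of about equal size by their longest annotated transcript. In the shortest class (66 to 1555 nt), the median log2 change was 0.37, with 203 genes higher and 1 lower. In the middle class it was -0.04, with 55 higher and 42 lower. In the longest class (from 5077 nt), it was -0.45, with 16 higher and 169 lower. Spearman's rho across 13362 genes between length and change was -0.40 in knockout oocytes and -0.41 in wild type oocytes, a description, since genes are not independent replicates.

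The same lean was seen library by library. A library's deviation from the mean library correlated with transcript length at rho = -0.32 to -0.14 in the 4 knockout libraries of 6 months, against -0.02 to 0.29 in the 12 of 7 weeks. The ages did not overlap (two-sided exact permutation test over 1820 splits, p = 0.00055, the smallest it can give, adjusted p = 0.0033 over 6 library measures). Of the 7 knockout libraries of 4 weeks, 1 lay at -0.21, inside the 6 month range, and the others at -0.06 to 0.27. In wild type oocytes the 6 month libraries lay at -0.47 to 0.08 and the 7 week libraries at 0.05 to 0.34. With each library's length trend taken out, an alternative chosen after the data were seen, 440 genes (3.27%) were called, 310 (2.30%) higher and 130 (0.965%) lower, and 325 of them were among the 782. Counts of list members with the length trend removed, given below, are to be read beside these shares. All 12 leading higher genes and 11 of the 12 leading lower genes still passed. Kmt2d, whose transcript is 19823 nt long, did not, at -0.85 on the log2 scale (adjusted p = 0.088, edgeR). Whether the length lean came with age or with how the libraries were made was not tested.

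**Figure D2:**
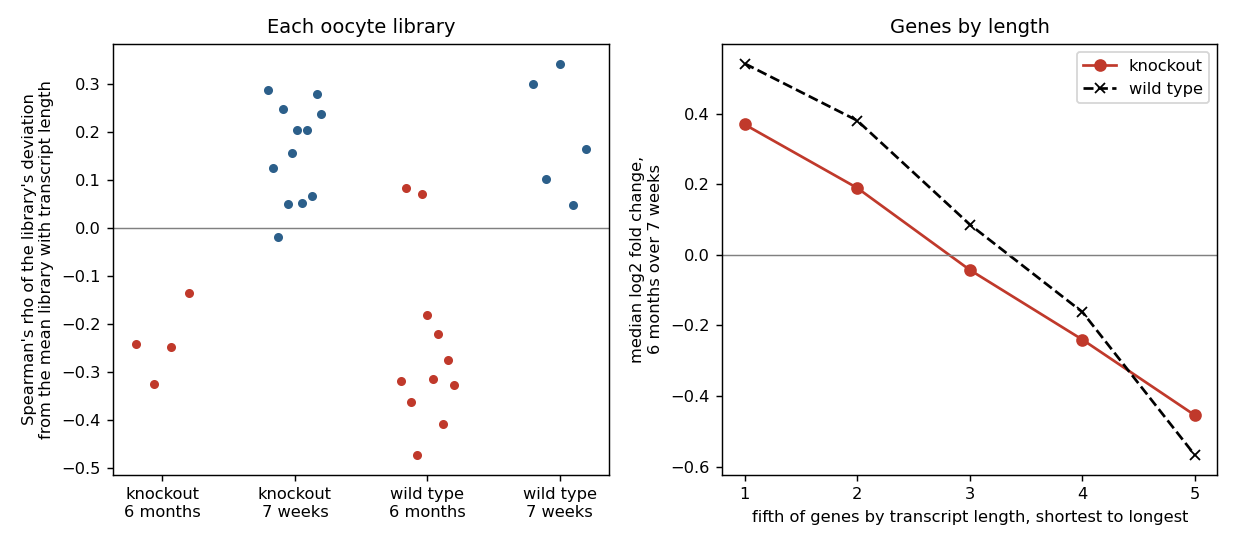
Left, Spearman's rho between a library's deviation from the mean library and transcript length, 1 point per library, for knockout and wild type oocytes at 6 months and 7 weeks. Right, median log2 fold change (6 months over 7 weeks) of genes in 5 classes by transcript length, which in knockout oocytes ran from 0.37 in the shortest to -0.45 in the longest.

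Total counts were 4119872 to 7751953 in the 6 month knockout libraries and 1814958 to 6134429 in the 7 week ones, with 14498 to 15223 genes detected at 6 months and 12988 to 14956 at 7 weeks. The 100 most abundant genes took 33.7% to 36.1% of the counts at 6 months and 24.7% to 33.1% at 7 weeks, without overlap (two-sided exact permutation p = 0.0016, adjusted p = 0.0049). Oocyte markers summed to 34518 ± 2244 CPM of the library's total at 6 months and 25773 ± 4119 CPM at 7 weeks, so the oocyte label held in both groups. Gdf9 alone averaged 20106 CPM at 6 months and 14990 CPM at 7 weeks. Bmp15 went the other way, at 1601 CPM at 6 months and 2155 CPM at 7 weeks. So did Kit, at 151.3 and 181.6 CPM, and Ddx4, at 10.3 and 13.9 CPM. The other members in the joined tables averaged higher at 6 months. Of the 16 granulosa cell markers, 7 were in the joined tables. Their sum of 987 to 1341 CPM at 6 months and 588 to 1126 CPM at 7 weeks was mostly Serpine2, a protease inhibitor, and the other 6 summed to 68.9 to 123.1 CPM at 6 months and 46.9 to 199.2 CPM at 7 weeks. Inha, the inhibin alpha subunit and a defining granulosa cell marker, had at most 2.51 CPM at 6 months and a median of 0.76 CPM at 7 weeks, where 1 library reached 59.0 CPM. Endothelial markers (4 of 11 in the tables) summed to 79.4 ± 17.1 CPM at 6 months and 116.2 ± 23.7 CPM at 7 weeks. This was mostly Pecam1, at a mean of 67.3 and 90.2 CPM, and Kdr, Flt1 and Tek averaged 1.69 to 14.7 CPM. The oocyte, granulosa and endothelial sums each had an adjusted p of 0.013 (two-sided exact permutation tests over 8 marker sums). Left out in turn, 6 month libraries 1, 2 and 3 each ended the oocyte and endothelial calls (adjusted p = 0.0645 to 0.0703), and libraries 2 and 3 the granulosa call (adjusted p = 0.0703 and 0.0645). Immune markers (5 of 15) summed to 50.5 ± 4.0 CPM at 6 months and 34.2 ± 11.0 CPM at 7 weeks (exact permutation, adjusted p = 0.059). That sum passed without 7 week library 2, 3, 9 or 11 or the unnumbered one (adjusted p = 0.0410 to 0.0479). Mural granulosa and luteal markers (6 of 10) summed to 175.7 ± 27.4 CPM at 6 months and 218.1 ± 29.7 CPM at 7 weeks (exact permutation, adjusted p = 0.038), a call lost without 6 month library 1, 2 or 3 (adjusted p = 0.0879 to 0.105) and without 7 week library 5 or 10 (adjusted p = 0.0513 and 0.0527). It was mostly Prlr, at a mean of 97.2 CPM at 6 months and 141.8 CPM at 7 weeks. Most of the rest was Cyp19a1, at 74.8 and 68.7 CPM, which is also in the granulosa list. The sums of cumulus (at most 3.54 CPM at 6 months and 41.6 CPM at 7 weeks), theca and stroma, and surface epithelium markers did not pass, except the last without 7 week library 11 (adjusted p = 0.0410). The surface epithelium sum was mostly Aldh1a2 and Cdh1, which went opposite ways. Aldh1a2 averaged 135.6 CPM at 6 months and 84.1 CPM at 7 weeks, and Cdh1 112.0 and 197.4 CPM. This sum therefore does not show that its members were unchanged. Erythroid markers were not analysed here. The part of other cell types in the gene changes was not tested. From the counts of a whole library, fewer cells of a type and less RNA per cell cannot be told apart.

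The zona gene Zp3 and the oocyte-secreted protein genes Oosp1, Oosp2 and Oosp3 were higher at 6 months. Of 16 tested genes of the zona pellucida and of oocyte-secreted factors, 4 were higher and 0 lower, with a median log2 change of 0.54 beside -0.04 over all genes. Over all genes 3.33% were higher and 2.47% lower. Oosp3, an oocyte-secreted protein, had 2686, 3352, 3274 and 2464 CPM at 6 months, against 972, 1388 and 1735 CPM at 7 weeks, without overlap. Zp3, the zona glycoprotein best known as a sperm receptor, had 902.7, 538.9, 542.4 and 446.5 CPM at 6 months, against 147.0, 268.4 and 421.9 CPM at 7 weeks. The other members called were Oosp1 and Oosp2. With the length trend removed 3 of the 4 still passed, and the median was 0.26. Between 3 and 5 members were higher when any 1 library of 6 months was left out. Zp3 lost its call without 6 month library 1 (adjusted p = 0.0539, edgeR), and Oosp1 without library 3 (adjusted p = 0.0505).

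Of 31 maternal effect genes, whose products the egg needs for the first divisions of the embryo, 4 were higher and 1 lower, with a median of 0.17. These counts are to be read beside 3.33% higher and 2.47% lower over all genes. Tle6, part of the subcortical maternal complex, had 1054, 695, 599 and 535 CPM at 6 months, against 215, 343 and 455 CPM at 7 weeks. Nlrp9c, of the NLRP family expressed in oocytes, had 783.9, 719.6, 785.1 and 696.6 CPM at 6 months, against 276.1, 427.1 and 599.5 CPM at 7 weeks. Neither gene overlapped between the ages, and both passed with the length trend removed. Smarca4, the ATPase of the BAF chromatin remodelling complex, was the member that was lower, at -0.79 ± 0.21 on the log2 scale. With the length trend removed it did not pass (-0.42 on the log2 scale, adjusted p = 0.199, edgeR), and 2 members were higher and 0 lower. The count of higher members was 2 without 6 month library 1 or library 3. Tle6 lost its call without library 1 (adjusted p = 0.0529, edgeR), and Smarca4 without library 1, 2 or 3 (adjusted p = 0.0512 to 0.106).

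Several genes of respiration and of protein turnover were higher at 6 months, to be read beside the 3.33% of all genes. Of 73 nuclear genes of oxidative phosphorylation, 7 were higher and 0 lower, with a median of 0.35. Ndufa4, a small subunit of the respiratory chain, had 284.4, 205.4, 248.7 and 211.7 CPM at 6 months, against 27.2, 39.5 and 133.4 CPM at 7 weeks. Ndufa11, of complex I, had 38.8, 19.4, 17.4 and 19.9 CPM at 6 months, against 0, 5.45 and 11.7 CPM at 7 weeks. Ndufa1 was higher as well, and so was Sdhd, a membrane anchor of complex II. These genes are short, with a median transcript of 1231 nt, and with the length trend removed the count was 5 and the median 0.10. The count was 3 without 6 month library 1, where Sdhd had an adjusted p of 0.100 (edgeR), and 4 without library 3.

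Of 38 proteasome genes, 7 were higher and 0 lower, with a median of 0.22. Beside Psmb2 and Psma2, Psma5, a further alpha subunit, had 106.5, 40.0, 71.2 and 37.7 CPM at 6 months, against 6.62, 17.7 and 34.3 CPM at 7 weeks, though it may share reads with a pseudogene that also passed. Psmc6, an ATPase of the regulatory particle, averaged 89.5 ± 13.6 CPM at 6 months and 46.3 ± 12.3 CPM at 7 weeks. With the length trend removed 4 members passed and the median of all 38 was -0.05, and 4 were higher without 6 month library 1 or library 3. Of 49 ubiquitin ligases and E2 enzymes, 7 were higher and 2 lower, and 6 were higher with the length trend removed. Over all genes 3.33% were higher and 2.47% lower, and 2.30% were higher with the length trend removed. The higher members included Ube2t, Ube2c, Ube2l3 and Anapc10, a subunit of the anaphase-promoting complex. The count of higher members was 4 without 6 month library 2 or library 3, where 1.53% and 1.33% of all genes were higher.

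Among genes of cell division, some were higher and some lower, to be read beside 3.33% higher and 2.47% lower over all genes. Among 30 genes of meiotic arrest and resumption, 2 were higher and 3 lower, and with the length trend removed 2 were higher and 1 lower. Ccnb2, a cyclin that activates the kinase of M phase, had 284.6, 334.4, 376.9 and 286.3 CPM at 6 months, against 89.8, 162.4 and 196.5 CPM at 7 weeks. Cdc25a, a phosphatase that activates cyclin-dependent kinases, had 42.6, 27.1, 27.5 and 48.4 CPM at 6 months, against 27.6, 85.0 and 126.9 CPM at 7 weeks. Without library 1, 2 or 3, 1 of these genes was lower. Mapk3, a MAP kinase gene, was higher, at 224.0 CPM in library 1 and 69.9 to 76.3 CPM in the others, against 26.0 to 68.4 CPM at 7 weeks. Mapk3 lost its call without library 1 (adjusted p = 0.0730, edgeR).

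Of 34 genes of the spindle checkpoint and the kinetochore, 3 were higher and 2 lower, and with the length trend removed 5 were higher and 2 lower. Bub3, which brings checkpoint kinases to the kinetochore, had 447.5, 340.4, 311.1 and 313.0 CPM at 6 months, against 96.9, 140.7 and 234.3 CPM at 7 weeks. Its partner Bub1b, the gene of BUBR1, had 1193, 674, 974 and 994 CPM at 6 months, against 1234, 1559 and 2760 CPM at 7 weeks. Both ranges were apart between the ages, in opposite directions, and both genes passed with the length trend removed. Of the chromosomal passenger complex, Birc5 was higher and Incenp lower. Of 33 genes of cohesin and chromosome structure, 3 were higher and 0 lower, and with the length trend removed 1 was higher. Pttg1, securin, which holds separase inactive, had 4398, 5369, 6087 and 3998 CPM at 6 months, against 2066, 2752 and 3200 CPM at 7 weeks. Top2b, a DNA topoisomerase with a transcript of 10335 nt, was higher by 1.04 ± 0.24 on the log2 scale. With the length trend removed Top2b passed, and Pttg1 did not (0.55 on the log2 scale, adjusted p = 0.169, edgeR). Leaving out 6 month library 3 left 1 checkpoint gene and 1 cohesin gene higher, leaving out library 1 left 1 checkpoint gene higher, and leaving out library 2 or library 3 left 0 checkpoint genes lower. Bub1b then had an adjusted p of 0.139 and 0.0622, and Incenp one of 0.113 and 0.0857 (edgeR). Birc5 lost its call without library 1 (adjusted p = 0.0621) or library 3 (adjusted p = 0.0599), and Pttg1 without library 3 (adjusted p = 0.0621).

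Several regulators of chromatin were lower at 6 months. Of 61 histone modifiers, 10 were lower and 1 higher, with a median of -0.68, beside 2.47% lower over all genes. Ep300, a histone acetyltransferase and coactivator, had 30.5, 21.0, 22.4 and 27.2 CPM at 6 months, against 43.7, 60.2 and 97.9 CPM at 7 weeks. Kat6b, a further acetyltransferase, had 132.1, 140.9, 124.0 and 149.4 CPM at 6 months, against 190.6, 245.5 and 334.2 CPM at 7 weeks. Hat1, which acetylates newly made histone H4, was the member that was higher, at 148.5 ± 17.1 CPM at 6 months and 77.3 ± 25.1 CPM at 7 weeks. Of 39 chromatin remodellers, 10 were lower and 0 higher, with a median of -0.63. Arid1a, a DNA-binding subunit of the BAF complex, had 309.4, 195.9, 289.8 and 319.3 CPM at 6 months, against 353.2, 567.8 and 737.5 CPM at 7 weeks. Chaf1a, the large subunit of chromatin assembly factor 1, averaged 113.7 ± 32.6 CPM at 6 months and 271.2 ± 103.5 CPM at 7 weeks, with overlap. Baz1b, partner of an ISWI ATPase, averaged 101.0 ± 25.5 CPM at 6 months and 278.8 ± 133.1 CPM at 7 weeks.

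These transcripts are long, with a median of 4663 nt for the modifiers and 6697 nt for the remodellers. With the length trend removed, 2 modifiers and 2 remodellers were lower, with medians of -0.40 in both. Over all genes 0.965% were lower in that fit. The calls leaned on single libraries, as did those over all genes. Without 6 month library 1, 6 modifiers and 5 remodellers were lower. There were 3 modifiers and 0 remodellers without library 2, and 4 modifiers and 1 remodeller without library 3. Over all genes 2.47% were lower with all libraries, 0.334% without library 2 and 0.349% without library 3. Arid1a lost its call without library 2 (adjusted p = 0.0673, edgeR), and Chaf1a and Baz1b theirs without library 2 or library 3 (adjusted p = 0.0664 to 0.106). Of the demethylation genes, Tet3, the dioxygenase that oxidises 5-methylcytosine in oocyte and zygote, had 721.1, 531.3, 755.7 and 798.4 CPM at 6 months, against 1086, 1564 and 2098 CPM at 7 weeks, and it passed with the length trend removed as well. Dnmt3l, the cofactor of de novo methylation, was higher, at 159.5 ± 57.5 CPM at 6 months and 85.9 ± 16.7 CPM at 7 weeks. Its call was lost without library 1 (adjusted p = 0.0750, edgeR) and with the length trend removed (adjusted p = 0.095). Of 10 histone genes tested, 3 were higher and 0 lower, with a median of 0.30, beside 3.33% higher over all genes. With the length trend removed 2 were higher, with a median of -0.009. The count was also 2 when any 1 library of 6 months was left out. The member H3f3b lost its call in each of those fits (adjusted p = 0.0601 to 0.182, edgeR). Among the higher ones was H2bc4, a histone H2B gene, at 112.2, 98.1, 100.9 and 84.0 CPM at 6 months, against 18.7, 35.1 and 53.9 CPM at 7 weeks.

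Of 37 genes of mRNA storage and poly(A) tail control, by which the oocyte holds and wakes its stored messages, 0 were higher and 5 lower, with a median of -0.52. The counts of this paragraph are to be read beside 3.33% higher and 2.47% lower over all genes. Cpeb3, of the family that binds cytoplasmic polyadenylation elements, had 24.1, 21.4, 23.7 and 26.2 CPM at 6 months, against 40.6, 63.6 and 188.6 CPM at 7 weeks. Cpeb4, of the same family, averaged 10.2 ± 3.0 CPM at 6 months and 30.4 ± 11.1 CPM at 7 weeks, and their ranges overlapped slightly. Ybx1, a cold shock domain protein that packages mRNA, averaged 72.5 ± 17.4 CPM at 6 months and 197.8 ± 112.3 CPM at 7 weeks. None of the 5 passed with the length trend removed, with a median of -0.40, and none passed without 6 month library 2 or library 3. Each of Cpeb3, Cpeb4 and Ybx1 also lost its call without library 1, and Cpeb3 and Ybx1 without library 4 (adjusted p = 0.0557 to 0.178 over these fits, edgeR). Among 7 week libraries, Cpeb4 lost its call without library 1 (adjusted p = 0.0511), and Ybx1 without library 12 (adjusted p = 0.0519) or the unnumbered one (adjusted p = 0.0625). Of 61 splicing factors, 2 were higher, which is close to the share over all genes, and 5 lower. Srrm2, a large protein of nuclear speckles, had 126.8, 95.0, 127.1 and 144.5 CPM at 6 months, against 204.1, 295.2 and 432.1 CPM at 7 weeks. When 6 month library 2 or library 3 was left out, 0 splicing factors were higher and 1 was lower, and without library 1, 1 was lower. Srrm2 lost its call without library 2 (adjusted p = 0.0671, edgeR). Of 20 tested immediate early genes, which are quickly induced by stimuli and by handling of cells, Egr1 and Klf4 were lower and 0 were higher, with a median of -1.01. Neither passed without 6 month library 2 or library 3 (adjusted p = 0.0503 to 0.146, edgeR), and 1 of them did without library 1 or library 4.

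Other groups showed few or no calls, to be read beside 3.33% higher and 2.47% lower over all genes. Of 43 tested cytosolic ribosomal protein genes, which are as short as the respiratory ones (median 1049 nt), 0 passed in either direction, with a median of 0.05. With the length trend removed 0 passed as well, and their median was -0.29. The list holds 78 genes, of which the others were not analysed here. Of 23 nuclear receptors and coregulators (median 5373 nt), 0 passed, with a median of -0.56, or -0.18 with the length trend removed. Of 13 steroid synthesis genes 0 passed. Of 42 antioxidant genes, 2 were higher: Prdx1, a peroxiredoxin, at 2162 ± 308 CPM at 6 months and 1014 ± 167 CPM at 7 weeks, and Mgst3, a microsomal glutathione transferase. Mgst3 lost its call without 6 month library 1, 2 or 3 (adjusted p = 0.0574 to 0.129, edgeR). Among 43 cytoskeleton genes, 3 were higher, including Tubb2a, a beta tubulin, at 350.4 ± 132.4 CPM at 6 months and 108.6 ± 43.8 CPM at 7 weeks, and Cfl1, which severs actin filaments.

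**Figure D3:**
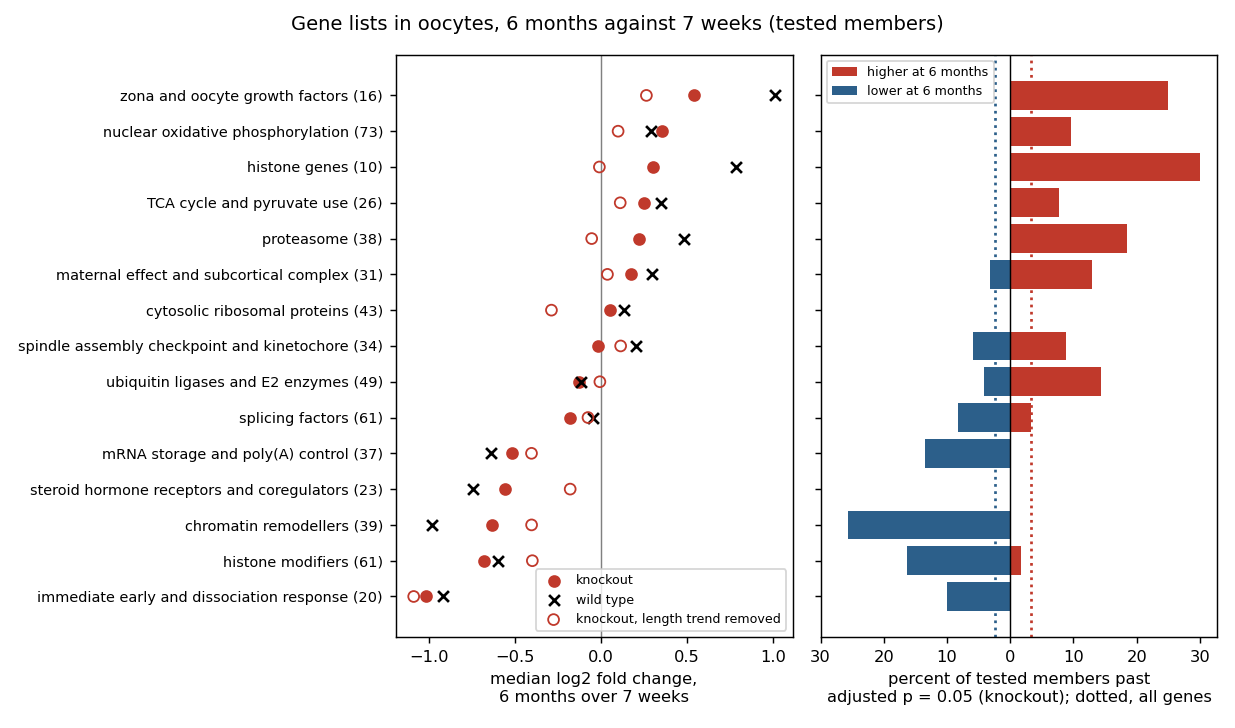
Left, median log2 fold change (6 months over 7 weeks) of the tested members of 15 gene lists, numbers in brackets, in knockout oocytes as fitted and with the length trend removed, and in wild type oocytes. Right, percent of tested members higher or lower at 6 months in knockout oocytes, beside 3.33% and 2.47% of all genes (dotted lines).

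The age change was then set beside that of wild type oocytes, to ask whether it differed where Esr2 was intact. In wild type oocytes 3464 of 13471 genes (25.7%) differed between 6 months and 7 weeks, 1767 (13.1%) higher and 1697 (12.6%) lower at 6 months. Without wild type 7 week library 1 that count was 1933. The sizes of the groups differ (4 against 12 in the knockout, 11 against 5 in the wild type), so the 2 counts are not a measure of which genotype changed more. Of the 782 genes called in the knockout, 690 were also called in the wild type, all in the same direction, which is 88.2% of the knockout calls and 19.9% of the wild type calls. Spearman's rho between the log2 changes of the genotypes across all tested genes was 0.70, a description over genes measured in the same pair of tables.

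Tested directly, the age change of knockout minus that of wild type passed for 0 of 13471 genes (0%) in edgeR, and in DESeq2 and limma voom as well, with 407 genes (3.02%) at an unadjusted p under 0.05. Gstm5 changed by 2.21 ± 0.25 in the knockout and by 2.23 in the wild type, a difference of -0.02 ± 0.38 (log2 ± SE). Psmb2 differed by -0.09 ± 0.36, Axin2 by 0.05 ± 0.29 and Kmt2d by 0.40 ± 0.34. With standard errors of 0.29 to 0.38, these values do not show that the genotypes changed alike. Ube2l3 was called in the knockout, at 1.57 ± 0.33, and not in the wild type, at 0.24 (adjusted p = 0.643, edgeR), and its difference did not pass when tested over all genes.

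**Figure D4:**
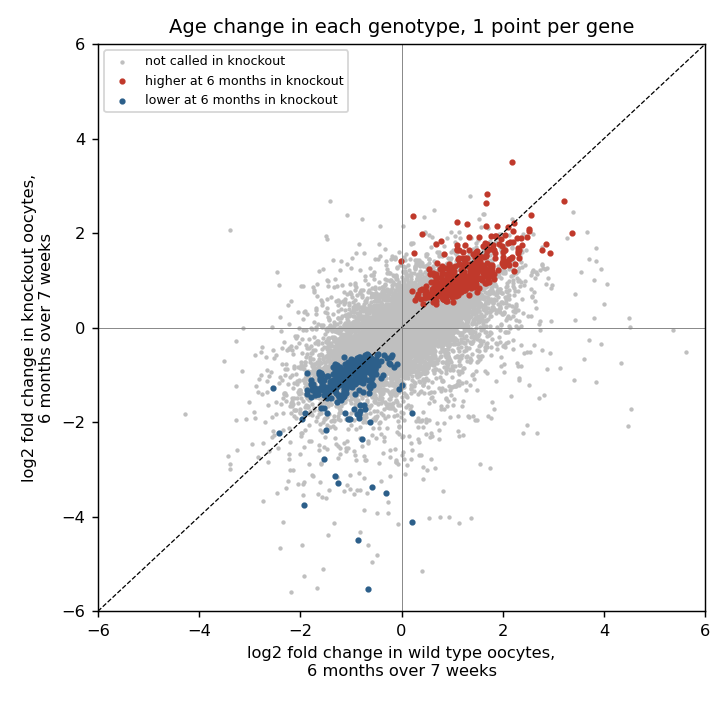
Log2 fold change of 6 months over 7 weeks in knockout oocytes (vertical) and wild type oocytes (horizontal), 1 point per tested gene, with 1 gene outside the axes. Coloured points are the 449 genes higher and the 333 lower in the knockout, and the dashed line marks equal change.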

How the data were processed

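Oocyte RNA was measured by Smart-seq2, per the labels' protocols, in 51 libraries of 3 ages, 16 of which are the Esr2 knockout libraries of 6 months and 7 weeks. The submitters' processing notes name STAR, Partek and DESeq2, without versions or order, and the mm10 genome. The gene annotation is not given in the sources used here, and the miRNA sequencing that the protocol mentions was not analysed here. The deposited tables hold expected counts per gene, estimated by the authors and not normalized. Of the values, 81.9% were whole, and all were rounded before testing.

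The 3 oocyte tables were joined by gene symbol (15022 genes in all of them, holding at least 99.8% of each library's counts). Genes were filtered with filterByExpr and scaled by TMM, and 1 mean per genotype and age was fitted over all 51 libraries with the robust quasi-likelihood test of edgeR 4.0.16 in R 4.3.3, with Benjamini-Hochberg adjustment over 13471 genes and a threshold of 0.05. That test gives no SE of a log2 change. The SE printed here is the absolute log2 change divided by the square root of the test's F statistic. No 2 libraries held identical values. Library measures and marker sums, the latter as log2 of CPM plus 1, were compared by two-sided exact permutation tests. The script was tested on simulated data. Transcript length is that of the longest GENCODE vM21 transcript of a symbol, matched through RefSeq synonyms where the symbol was newer, for 99.2% of tested genes.

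The genes named are Esr2, Esr1, the 12 higher and 12 lower with the smallest p among those called averaging 5 CPM or more at the higher age, without predicted genes and pseudogenes, and up to 4 members per list by smallest p. The pseudogene Ldhb-ps was named after its values were seen. The comparison, the gene lists and the marker lists were chosen with earlier results of these data known. Alternatives were DESeq2 1.42.0, limma voom (limma 3.58.1), other scaling, no filter, the 16 knockout libraries alone, covariates, a replicate block, removed length and GC trends, and each knockout library left out. One member of the list of meiotic arrest and resumption that the rule selects is not reported here.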

Additional observations from a re-analysis of the deposited data

Results flagged for a closer look

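Among the 4 knockout libraries of 6 months, the values of 6 named genes and 2 marker sums had 1 library far from the others, by Dixon's test at the 95% level. This was 8 of 193 sets of 4 values, and chance gives about 1 in 20. Library 1 was high for 4 genes: Mis18a at 248.6 CPM (63.57 to 72.09 CPM in the others), Mapk3 at 224 CPM (69.86 to 76.31), Pebp1 at 161 CPM (63.07 to 67.87) and Ndufa11 at 38.84 CPM (17.43 to 19.89). Mdh1, cytosolic malate dehydrogenase, was low in library 4, at 381.3 CPM (497.9 to 503.7 CPM in the others). Ncoa2, a nuclear receptor coactivator, was low in library 2, at 37.72 CPM (65.69 to 69.54). Library 4 also had the high endothelial marker sum of 104.9 CPM (67.93 to 72.76) and the low immune marker sum of 44.44 CPM (52.14 to 52.87). Without library 1, Mis18a, Pebp1 and Ndufa11 still passed the edgeR test, and Mapk3 did not (adjusted p = 0.0730).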

How the results depend on the processing

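The count of 782 genes was 854 with DESeq2 scaling, 743 without a filter, 1001 with limma voom and 671 without the unnumbered library. It was 1532 with the DESeq2 test (766 shared with the 782) and 1738 when only the 16 knockout libraries were fitted (773 shared). It was 451 with the granulosa marker share as a covariate (1782 in wild type), 489 with library depth as a covariate, 440 with the length trend and 302 with the length and GC trends removed. Leaving out 1 knockout library gave 231 to 972 genes, with 407, 257 and 231 without 6 month libraries 1, 2 and 3. In wild type, the fits without 1 library gave 1933 to 4148 genes, with 1933 without wild type 7 week library 1. The difference between genotypes gave 0 genes under each alternative run. The numbers shared by the ages did not pair the libraries (correlations 0.042, -0.012 and -0.063, with the own number ranked 3, 8 and 7 of 11), and the fit with a replicate block called 162 genes.

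Of the 24 leading genes, 4 lost their call with the block, 1 with the length trend and 2 with the length and GC trends removed, and 1 without 6 month library 3. Values turned in sign for 3 results that had not passed: Esr1 (0.04 on the log2 scale) at -0.027 without 6 month library 1 and -0.029 without 7 week library 8, with up to 0.156 over the fits without 1 library, Asz1 (0.39) at -0.027 with length and GC trends removed, and the theca and stroma sum (-0.33) at 0.034 without 6 month library 4. Over the fits without 1 numbered library, the log2 difference of marker sums was 0.38 to 0.49 for oocyte, 0.49 to 0.64 for granulosa, -0.61 to -0.15 for cumulus, -0.41 to -0.26 for mural granulosa and luteal, -0.50 to 0.034 for theca and stroma, -0.68 to -0.47 for endothelial, 0.55 to 0.68 for immune and -0.25 to -0.14 for surface epithelium markers. Without the unnumbered library it was -0.60 for theca and stroma and 0.51 for immune markers. The difference in total count was 675060 to 1885800, and it passed without 6 month library 4 (adjusted p = 0.0396). Depth limits what can be said of genes near 1 CPM.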
